A study of Homo sapiens with 10 samples.

Results

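Polycomb repressive complex 2 (PRC2) was followed through its subunit genes in H1 human embryonic stem cells in which 1 of 4 chromatin regulators had been knocked down. The subunits were taken by name: EZH2, EZH1, EED, SUZ12, JARID2, MTF2, PHF19, RBBP4 and RBBP7, which are 9 of the 13808 genes in the deposited table. The rule used no measured value, but the choice was made with earlier results of these data known. All 9 were in the table and were tested. JARID2 was the 1 subunit whose transcript differed past the threshold, and it did so between knockdowns. It was lower with SMARCA4 knocked down than in the mean of the MAFK, E2F6 and KDM1A knockdowns. That is 1 of 9 subunits in a comparison that called 8.7% of all rows, a share near the background. Against the control, 0 of the 9 subunits changed past the threshold in any of the 4 knockdowns.

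PRC2 places methyl groups on lysine 27 of histone H3 and thereby keeps developmental genes silent. EZH2 or its paralog EZH1 carries the catalytic domain, EED and SUZ12 hold the core together, and the histone-binding proteins RBBP4 and RBBP7 complete it. Accessory subunits bring the core to its sites: MTF2 and PHF19 are Polycomb-like proteins of one form of the complex, and JARID2 belongs to the other form. In pluripotent cells PRC2 occupies the promoters of many lineage regulators.

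H1 is a long-established human embryonic stem cell line, labelled wild type here. All 5 groups were grown in mTeSR1 medium on Matrigel, received a packaged virus carrying a short hairpin RNA (shRNA) and were selected with puromycin. The shRNA targeted SMARCA4 (the ATPase of the BAF chromatin remodeller), MAFK (a small MAF transcription factor), E2F6 (a repressive E2F factor found in a variant of Polycomb complex 1), KDM1A (the histone demethylase LSD1) or, in the control group shLUC, luciferase, for which human cells have no gene. Each group had 2 libraries made from total RNA, described as biological duplicates. P-values here measure the spread between these libraries.

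Values are read as normalized tag counts, deposited as whole numbers whose library totals lie between 22836548 and 22855295, so read depth is unknown and a normalized value is the only measure of abundance. The targeted transcripts stood at 12.7% of the shLUC mean (SMARCA4), 59.6% (MAFK), 61.3% (E2F6) and 42.1% (KDM1A). MAFK had 82 and 216 in the libraries labelled shMAFK against 212 and 288 in shLUC, so replicate 2 overlapped the control, while the other 3 targets were below both control libraries in both of their own. The 2 shKDM1A libraries differed from each other more than those of other groups did: the SD between replicates over all rows was 0.53 on the log2 scale, against 0.264 to 0.335 elsewhere. All 10 pluripotency markers examined, among them POU5F1, NANOG and SOX2, were above 0 in every library. In bulk RNA, fewer cells of a type and less RNA per cell cannot be told apart.

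The bases around the start sites of the subunit genes are shown because 1 of the knockdowns targets an E2F factor, and E2F factors bind short GC-rich sites. Stretches come from RefSeq windows on GRCh38.p14, which run from 250 bases before to 50 bases after a start, and all 9 subunits had windows, 14 in all. The letters searched were TTTCCCGC, TTTCGCGC, TTTGCCGC and TTTGGCGC, on both strands, with none of these overlapping another match in a subunit window. They occurred in 5 of the 14 windows (35.7%), against 4.79% of the 15441 windows of genes in the table and 3.31% of all 35116 windows. Capitals mark the match, and each line is read 5′ to 3′ along the strand of the gene.
EZH2, chr7:148884272-148884301, minus strand, in an exon of EZH2: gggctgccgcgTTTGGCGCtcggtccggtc
EZH1, chr17:42745137-42745166, minus strand, outside annotated genes: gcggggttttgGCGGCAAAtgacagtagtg
SUZ12, chr17:31936807-31936836, plus strand, outside annotated genes: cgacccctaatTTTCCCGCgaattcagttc
MTF2, chr1:93079277-93079306, plus strand, in an exon of MTF2: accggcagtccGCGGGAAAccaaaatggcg
PHF19, chr9:120877322-120877351, minus strand, in an exon of PHF19: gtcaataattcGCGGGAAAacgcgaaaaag
The match lay 115 bases before the start in EZH1, 189 before it in SUZ12 and 152 before it in PHF19, and within the first transcribed bases in EZH2 and MTF2. EED, JARID2, RBBP4 and RBBP7 had no such letters in these windows. The E-box letters CACGTG, read the same on both strands, occurred in 1 of the 14 windows (7.14%), at RBBP4, and in 9.18% of windows of genes in the table. A match of letters is a description and shows neither binding nor an effect of a knockdown.

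JARID2 carries the difference reported below, and the 250 bases before each of its 2 RefSeq starts are given for reference. The first stretch lies outside annotated genes, and the second lies in an intron of JARID2 and overlaps an exon of JARID2-AS1 on the other strand. Neither holds the letters searched.
JARID2 first start, chr6:15245819-15246068, plus strand: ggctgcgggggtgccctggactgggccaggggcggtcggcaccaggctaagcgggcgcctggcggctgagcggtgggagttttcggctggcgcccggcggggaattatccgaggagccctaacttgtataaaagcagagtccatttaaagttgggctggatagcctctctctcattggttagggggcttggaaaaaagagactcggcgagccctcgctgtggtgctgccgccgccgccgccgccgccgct
JARID2 second start, chr6:15248605-15248854, plus strand: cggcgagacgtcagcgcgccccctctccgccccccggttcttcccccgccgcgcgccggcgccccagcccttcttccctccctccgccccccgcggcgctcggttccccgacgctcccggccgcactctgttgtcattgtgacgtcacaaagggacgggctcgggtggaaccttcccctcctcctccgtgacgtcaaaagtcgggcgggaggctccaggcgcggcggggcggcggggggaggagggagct

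Across the 4 comparisons with shLUC, limma called 0 of the 36 tests of subunits at an adjusted p under 0.05, and 2 had an unadjusted p under 0.05, both of them JARID2. The share of all 14785 rows called was 4.18% for shSMARCA4, 0.0135% for shMAFK, 0.0% for shE2F6 and 0.0271% for shKDM1A (0.0203% higher and 0.00676% lower), so a count of 0 among 9 is near the background in each. Leaving out 1 library moved the number of rows called in shSMARCA4 from 618 to between 89 (without shLUC replicate 2) and 1159 (without shKDM1A replicate 2). The share with an unadjusted p under 0.05 was 16.3%, 8.77%, 5.09% and 11.5% in the same order. The largest change in size was a log2 difference of -0.40 (SUZ12 in shSMARCA4), and 0 of the 36 confidence intervals (95%) reached a 2-fold change in either direction. The farthest bound, -0.90 on the log2 scale, was also that of SUZ12 in shSMARCA4. The median log2 change of the 9 subunits was 0.06 in shKDM1A, 0.00 in shE2F6, 0.02 in shMAFK and -0.02 in shSMARCA4, beside -0.02, -0.00, -0.00 and 0.01 over all rows. Libraries of a knockdown lay above both control libraries for 3 subunits in shKDM1A (17.9% of all rows did so), 2 in shE2F6 (20.3%), 2 in shMAFK (23.8%) and 2 in shSMARCA4 (25.6%). They lay below both for 1 subunit in shKDM1A (20.9%), 1 in shE2F6 (20.4%), 2 in shMAFK (25.3%) and 3 in shSMARCA4 (25.4%). Against all 6 libraries of the other 3 knockdowns, 1 subunit was higher in shSMARCA4 (9.89% of rows) and 2 were lower (9.77%).

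Most subunit transcripts varied less from library to library than the median gene. The highest of the 10 libraries exceeded the lowest by a median of 0.65 on the log2 scale over the 9 subunits, beside 0.89 over all 13808 genes, and 8 of the 9 had a smaller range than the median gene. RBBP4 had the widest range, 1.85-fold, and EZH2 the narrowest, a log2 range of 0.48. In shLUC the level of the subunits lay between percentile 46.5 (PHF19) and percentile 96.2 (JARID2) of all rows. Ranges were not compared with those of genes of like level.

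**Figure D1:**
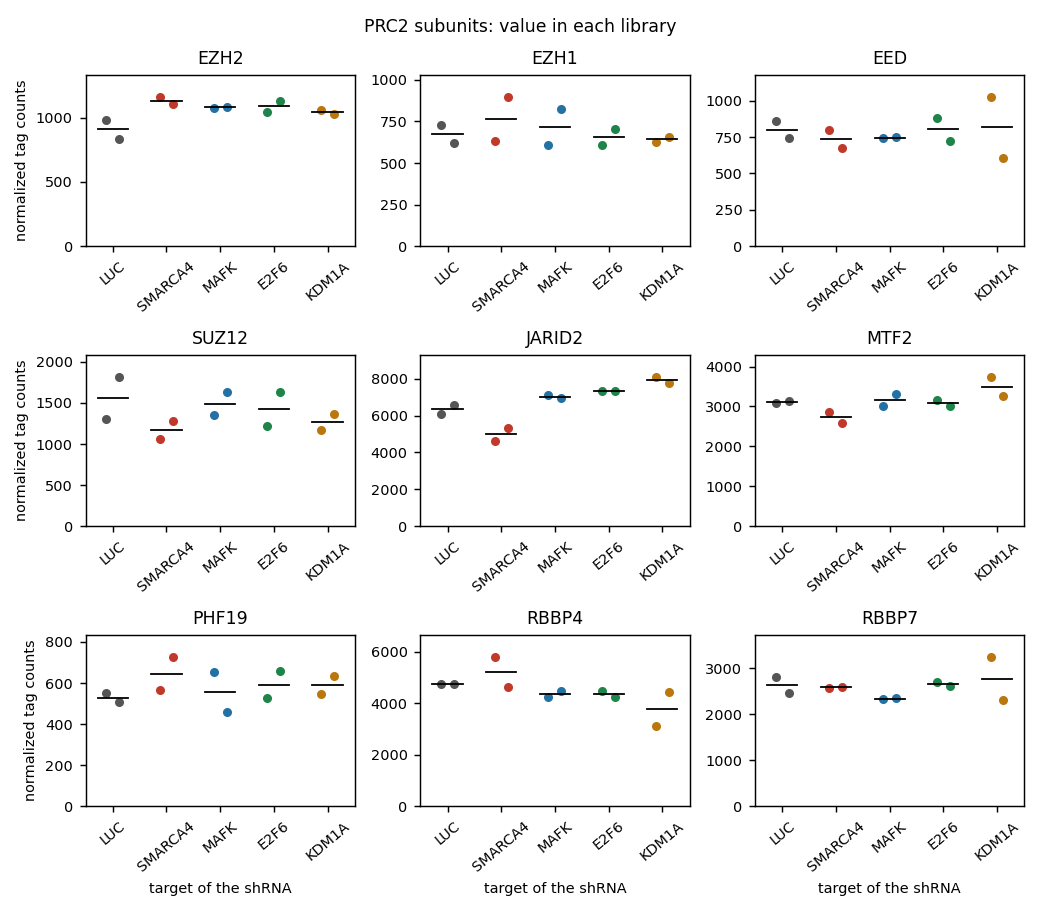
Normalized tag counts (vertical axis, linear from 0) of the 9 PRC2 subunits in each of the 10 libraries, by target of the shRNA (horizontal axis). Points are libraries and lines are group means (n = 2). JARID2 is lowest in the 2 shSMARCA4 libraries (4646 and 5300), and the control libraries have the lowest values of EZH2 (985 and 836).

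EZH2, the main methyltransferase of dividing cells (ENSG00000106462, chromosome 7, 148807383 to 148884321, minus strand), had 985 and 836 normalized tag counts in the shLUC libraries. It had 1060 and 1026 in shKDM1A, 1046 and 1134 in shE2F6, 1078 and 1087 in shMAFK, and 1163 and 1105 in shSMARCA4. All 8 knockdown libraries lay above both control libraries, a pattern that 2.06% of all rows shared, and 1.86% had the opposite one. The 4 comparisons rest on the same 2 control libraries, so this is not 4 separate observations. The log2 changes, each with an SE of 0.15, were 0.20 in shKDM1A (limma adjusted p 0.573), 0.26 in shE2F6 (0.996), 0.25 in shMAFK (0.716) and 0.32 in shSMARCA4 (0.328). Without shLUC replicate 2, the lower control library, they were 0.08, 0.14, 0.14 and 0.20 in the same order. The groups averaged 1134 ± 41.0 (SD, n = 2) in shSMARCA4 and 910.5 ± 105 in shLUC, and the knockdowns did not differ from each other past the threshold (F-test, limma adjusted p 0.917).

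EZH1, the paralog with weaker catalytic activity that is known from non-dividing cells (ENSG00000108799, chromosome 17, 42700275 to 42745049, minus strand), had 729 and 622 in shLUC. It had 628 and 657 in shKDM1A, 608 and 704 in shE2F6, 608 and 828 in shMAFK, and 630 and 898 in shSMARCA4. Every knockdown group overlapped the control, and the log2 changes ran from -0.07 (shKDM1A) to 0.16 (shSMARCA4), each with an SE of 0.22. The direction in shSMARCA4 rested on replicate 2: without it the log2 change was -0.10.

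The balance of the 2 enzymes was set out as a ratio within each library. The log2 ratio of EZH2 to EZH1 was 0.43 in both shLUC libraries, 0.75 and 0.64 in shKDM1A, 0.78 and 0.69 in shE2F6, 0.83 and 0.39 in shMAFK, and 0.88 and 0.30 in shSMARCA4. Both libraries of shE2F6 and of shKDM1A thus lay above the control, while those of shSMARCA4 and shMAFK fell on either side of it. The mean ratio was higher than in shLUC by 0.30 in shE2F6 and by 0.27 in shKDM1A on the log2 scale, with a two-sided exact permutation p of 0.333 in each, which is the smallest that 2 libraries against 2 can give. Per kb of exon, a scale whose limits are given below, EZH2 stood 1.90 to 2.85 times as high as EZH1 over the 10 libraries. The 2 genes share 0 of the 50-base windows of their transcripts.

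EED, which binds the methylated histone tail (ENSG00000074266, chromosome 11, 86244544 to 86278813, plus strand), had 858 and 740 in shLUC, 743 and 750 in shMAFK, and 797 and 678 in shSMARCA4. It had 878 and 726 in shE2F6 and 1026 and 608 in shKDM1A. Those last 2 values are the highest and the lowest of all 10 libraries, so the pair of shKDM1A libraries spans the whole range. The log2 changes lay between -0.12 (shSMARCA4) and 0.00 (shE2F6), with an SE of 0.24. In shKDM1A the change was -0.01, and it was -0.39 without replicate 1 and 0.36 without replicate 2.

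SUZ12, the scaffold of the core (ENSG00000178691, chromosome 17, 31937018 to 32001045, plus strand), had 1306 and 1815 in shLUC and 1066 and 1282 in shSMARCA4. It had 1166 and 1367 in shKDM1A, 1225 and 1631 in shE2F6, and 1350 and 1628 in shMAFK. Both shSMARCA4 libraries lay below both control libraries, while the other knockdowns overlapped the control. SUZ12 was 1 of 3 subunits with this order in shSMARCA4 (25.4% of all rows had it), and its log2 change there was -0.40 (95% interval -0.90 to 0.11, limma adjusted p 0.451). Leaving out shLUC replicate 2 gave -0.16, and leaving out replicate 1 of that group gave -0.63. In each of the 5 groups replicate 1 was below replicate 2. With a replicate block, which fits such a shift, the log2 change was -0.40 (SE 0.14, limma adjusted p 0.180), also not called. The spread within the control pair, 1306 to 1815, was the widest of the 5 groups. Of the 50-base windows of SUZ12 transcripts, 7.66% also occur in transcripts of other genes, mostly in the pseudogene SUZ12P1 (6.57%), and how such reads were counted is not given in the sources used here.

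JARID2, the accessory subunit that links PRC2 to ubiquitinated nucleosomes (ENSG00000008083, chromosome 6, 15246296 to 15522040, plus strand), had 6077 and 6578 normalized tag counts in shLUC. It had 8086 and 7784 in shKDM1A, 7313 in both shE2F6 libraries, 7097 and 6928 in shMAFK, and 4646 and 5300 in shSMARCA4. The groups did not overlap: shSMARCA4 was lowest, shLUC came next, and shMAFK, shE2F6 and shKDM1A followed in that order with every library above the control. Of all rows, 25.4% lay below both control libraries in shSMARCA4. The shares above both were 23.8% in shMAFK, 20.3% in shE2F6 and 17.9% in shKDM1A. How many rows had all of these together was not counted. Against the mean of the other 3 knockdowns, JARID2 in shSMARCA4 was lower, with a log2 difference of -0.58 (SE 0.11, 95% interval -0.82 to -0.33, limma adjusted p 0.0122), or 0.67 of their level. It was the 1 subunit called in that comparison, beside the 5.0% of all rows that were called lower.

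The F-test over the 4 knockdowns also called JARID2 (limma adjusted p 0.0471), as it did 6.64% of rows (23.6% had an unadjusted p under 0.05). Set against shLUC, the log2 change of JARID2 was -0.35 in shSMARCA4 (SE 0.13, unadjusted p 0.0273, limma adjusted p 0.221) and 0.33 in shKDM1A (unadjusted p 0.0359, limma adjusted p 0.408). The group means were 4973 ± 462 (SD, n = 2) in shSMARCA4, which is 78.6% of the 6327.5 ± 354 in shLUC, and 7935 ± 214 in shKDM1A, which is 125% of it. The changes in shMAFK (0.15) and shE2F6 (0.21) were not called (limma adjusted p 0.875 and 1). Neighbouring values in the deposited table near JARID2 are at most 0.03 apart on the log2 scale, so the equal values of the shE2F6 libraries show only that both fell on the same step.

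The lower JARID2 in shSMARCA4 against the other knockdowns was called under each of 11 other processing settings (limma adjusted p 0.0100 to 0.0308). The setting without a filter repeats the main fit, and most others could not move the log2 difference. It was -0.53 without both shKDM1A libraries and -0.58 under the rest. Of the 10 fits that left out 1 library, those without a shLUC or shE2F6 library kept -0.58. They could not move it, since the contrast does not use shLUC and the shE2F6 values are equal. Over the 10 fits the log2 difference ran from -0.67, without shSMARCA4 replicate 2, to -0.48. It was not called without shSMARCA4 replicate 1, the library with the lowest value: the log2 change was then -0.48 (limma adjusted p 0.125, over a range of 0.00471 to 0.125 in these fits). The F-test was called under 6 of the 11 settings (0.0217 to 0.105) and in 2 of the 10 fits, those without a shKDM1A library.

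Genes listed as markers of other cell types also stood at other levels in shSMARCA4. All 4 genes listed for fibroblasts were in the table. Their summed level was 6634 to 7613 in shSMARCA4 against 17576 to 18654 in shLUC and 16165 to 31004 in the other knockdowns. THY1 alone had 8852 and 9056 in the shLUC libraries, so the sum does not show that fibroblasts were present. VIM, COL1A1 and THY1 were each lower in shSMARCA4 than in shLUC (limma adjusted p 0.0011, 0.0177 and 0.0130), while COL1A2 was not called. Of the 4 mesoderm symbols listed, EOMES and MIXL1 were in the table and summed to 856 and 4239 in shSMARCA4 and to 10 to 58 in the other groups. The endoderm marker FOXA2 (1 of 3 listed) had 170 and 792 in shSMARCA4 and at most 4 elsewhere, and was at 0 in both shMAFK libraries. These 3 genes reached the 80 in 2 libraries that every row of the table meets only through shSMARCA4, so their presence in the table already required high values there. The trophoblast marker KRT7 (1 of 4 listed) had 30 and 44 in shSMARCA4 against 125 to 360 elsewhere (limma adjusted p 0.00463 against shLUC). The summed level of the 10 pluripotency markers was 148897 and 173894 in shSMARCA4 and 166896 to 273878 in the other groups. The sum of 273878 was that of shKDM1A replicate 1, and POU5F1 alone ranged from 16615 to 148866 over all libraries. Of these 10, 3 differed from the other knockdowns past the threshold, where 8.7% of rows did: LIN28A and SOX2 lower and NANOG higher. LIN28A took 3 values in all, 30774 in both shSMARCA4 libraries, 51691 in shE2F6 replicate 2 and 41812 in the other 7, so its call rests on a coarse set of values. The 3 neural markers listed were not analysed here. The part of these markers in the JARID2 result was not tested.

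MTF2, a Polycomb-like protein that binds unmethylated CpG-rich DNA (ENSG00000143033, chromosome 1, 93079235 to 93139081, plus strand), had 3094 and 3128 in shLUC and 2870 and 2586 in shSMARCA4. It had 3738 and 3262 in shKDM1A, 3168 and 3007 in shE2F6, and 3007 and 3314 in shMAFK. The shSMARCA4 libraries were below and the shKDM1A libraries above both control libraries, the same order as for JARID2, with 25.4% of rows sharing the first and 17.9% the second. The log2 changes were -0.19 (SE 0.15, limma adjusted p 0.611) and 0.17 (limma adjusted p 0.630). Against the other 3 knockdowns MTF2 was at -0.25 in shSMARCA4 (unadjusted p 0.0668, limma adjusted p 0.266), which did not pass the threshold.

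PHF19, another Polycomb-like protein (ENSG00000119403, chromosome 9, 120855652 to 120894896, minus strand), had 553 and 506 in shLUC. It had 546 and 634 in shKDM1A, 528 and 657 in shE2F6, 654 and 461 in shMAFK, and 564 and 726 in shSMARCA4. The shSMARCA4 libraries were above both controls, unlike those of JARID2 and MTF2, and the log2 change was 0.27 (SE 0.22, limma adjusted p 0.624). It was 0.09 without shSMARCA4 replicate 2 and 0.46 without replicate 1.

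**Figure D2:**
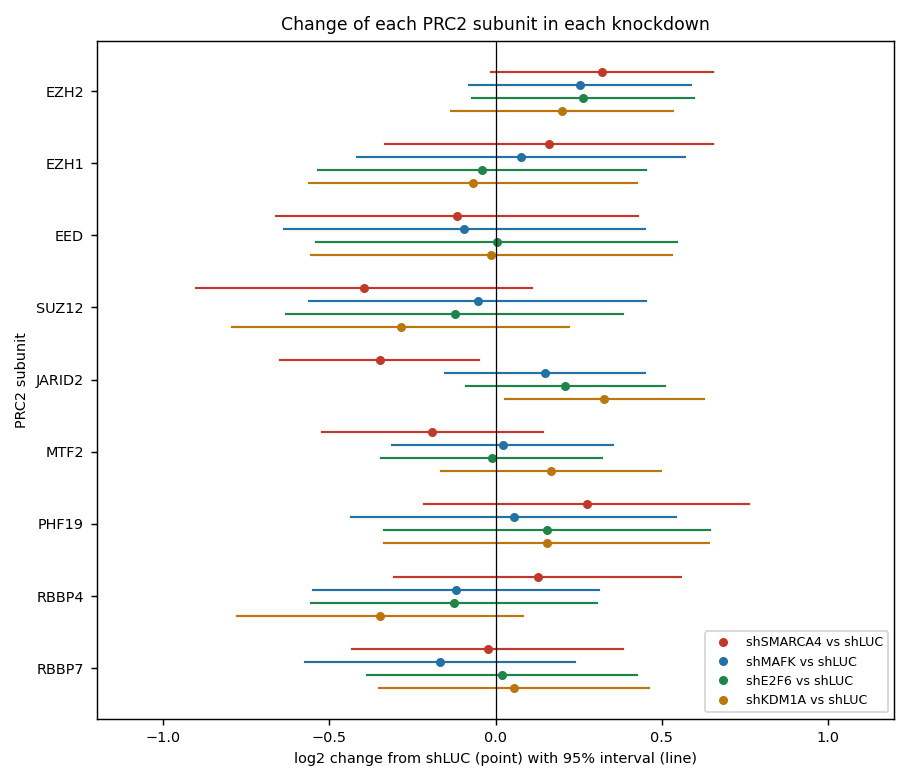
Log2 change from shLUC (horizontal axis) of each PRC2 subunit (vertical axis) in each knockdown, as points with 95% intervals as lines, from 1 limma fit of all 10 libraries. The JARID2 intervals in shSMARCA4 and shKDM1A lie on opposite sides of 0, although neither change passes the threshold after adjustment, and no interval reaches 1 in size.

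RBBP4 and RBBP7 are WD-repeat histone chaperones that PRC2 shares with the deacetylase complexes NuRD and SIN3. RBBP4 (ENSG00000162521, chromosome 1, 32651142 to 32686211, plus strand) had 4750 in both shLUC libraries, 3128 and 4453 in shKDM1A, 4487 and 4228 in shE2F6, 4262 and 4487 in shMAFK, and 5791 and 4646 in shSMARCA4. It lay below the control in all 6 libraries of shMAFK, shE2F6 and shKDM1A, and also in shSMARCA4 replicate 2 (4646). A knockdown pair below both controls was common: 25.3% of all rows had it for shMAFK, 20.4% for shE2F6 and 20.9% for shKDM1A. The share of rows with all 6 libraries below was not counted. The 2 control values of RBBP4 were equal, so any lower value fell below both. RBBP4 was lowest in shKDM1A replicate 1, by a wide margin. The log2 change in shKDM1A was -0.35 (SE 0.19, limma adjusted p 0.486), and it was -0.09 without replicate 1.

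Leaving out shKDM1A replicate 2 in place of replicate 1 gave RBBP4 a log2 change of -0.60 and a call in shKDM1A (limma adjusted p 0.0321), with the remaining library assumed to vary like those of the other groups. RBBP4 in shSMARCA4 against the other 3 knockdowns was then also called (0.41, limma adjusted p 0.0345), where with all libraries it was at 0.32 (limma adjusted p 0.267). The exons of RBBP4 overlap those of SYNC on the other strand over 1706 bases (18.01% of its exon length), and 4.74% of its 50-base windows occur in transcripts of other genes, led by RBBP4P1 (2.83%). Whether counting used strand is not given in the sources used here, so reads of both genes may be in this value.

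RBBP7 (ENSG00000102054, chromosome X, 16839283 to 16870414, minus strand) had 2808 and 2473 in shLUC, 3246 and 2312 in shKDM1A, 2712 and 2628 in shE2F6, 2331 and 2362 in shMAFK, and 2576 and 2606 in shSMARCA4. The shMAFK libraries lay below both controls, and the shKDM1A pair again held the highest and the lowest of the 10 values. The log2 changes ran from -0.17 (shMAFK, limma adjusted p 0.913) to 0.06 (shKDM1A). The last was -0.19 without shKDM1A replicate 1 and 0.30 without replicate 2.

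In shKDM1A replicate 1 the 2 chaperones went apart, with RBBP4 at its lowest and RBBP7 at its highest. The log2 ratio of RBBP4 to RBBP7 was -0.05 there and 0.95 in shKDM1A replicate 2, against 0.76 and 0.94 in shLUC, 0.73 and 0.69 in shE2F6, 0.87 and 0.93 in shMAFK, and 1.17 and 0.83 in shSMARCA4. The ratio in shE2F6 was lower than in shLUC in both libraries, with a mean log2 difference of -0.14 (two-sided exact permutation p 0.333, the smallest possible here). The 2 transcripts share 0 of their 50-base windows.

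**Figure D3:**
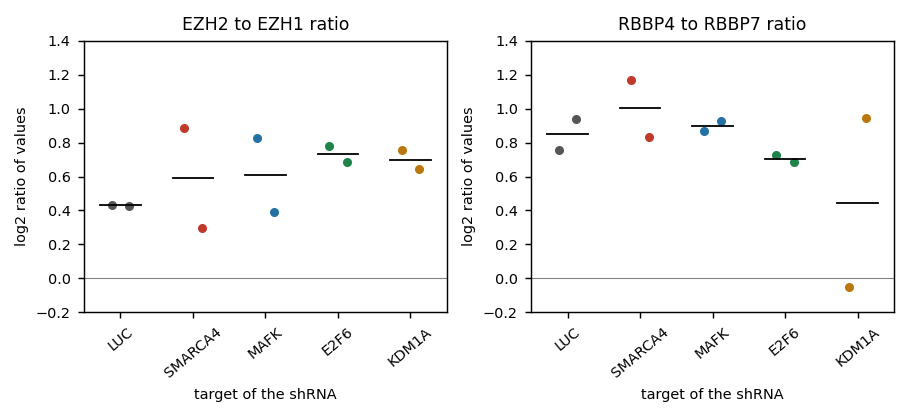
Log2 ratio of normalized tag counts (vertical axis) of EZH2 to EZH1 (left) and of RBBP4 to RBBP7 (right) by target of the shRNA (horizontal axis). Points are libraries and lines are group means (n = 2). The RBBP4 to RBBP7 ratio is -0.05 in 1 shKDM1A library and between 0.69 and 1.17 in the other 9 libraries.

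Levels of different subunits were compared per kb of merged exon, since longer transcripts gather more reads. Merged exon covers all annotated transcripts of a gene, which can be longer than the transcript expressed. Whether the deposited values were already corrected for length is not given in the sources used here, so the order holds for this scale only. On this scale JARID2 was the most abundant subunit, with a mean of 1116 normalized tag counts per kb over the 10 libraries, followed by MTF2 (528), RBBP4 (475) and RBBP7 (352). EZH2 (233) and SUZ12 (211) came next, and EED (111), EZH1 (98.9) and PHF19 (86.6) were lowest. The order has 3 breaks, where no library of the one gene reached a library of the next. The lowest JARID2 value per kb was 772 against a highest MTF2 value of 633, the lowest RBBP7 value was 313 against a highest EZH2 value of 257, and the lowest SUZ12 value was 163 against a highest EED value of 146. The ranges of the other neighbours overlapped, as EZH2 (185 to 257) did with SUZ12 (163 to 277). The accessory subunits thus hold both ends of the order, JARID2 and MTF2 at the top and PHF19 at the bottom.

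**Figure D4:**
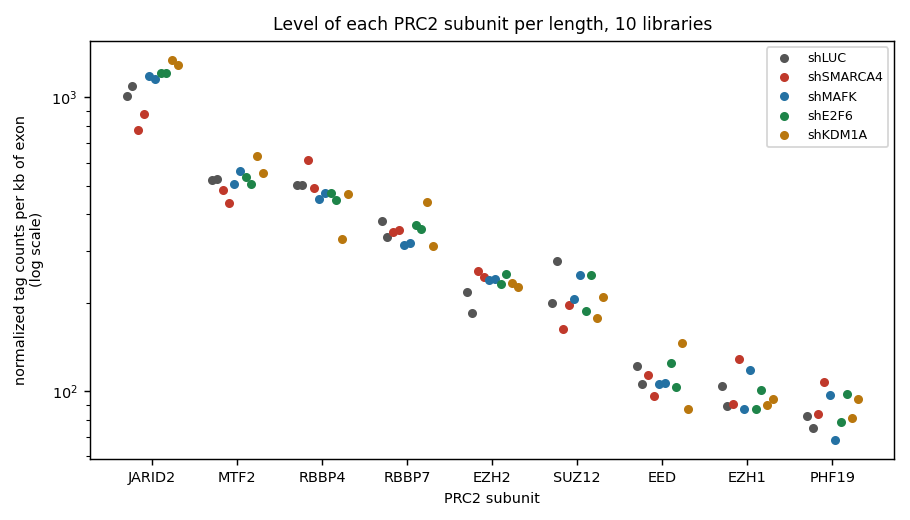
Normalized tag counts per kb of merged exon (vertical axis, log scale) of the 9 PRC2 subunits in the order of their means (horizontal axis), with 1 point per library coloured by group. JARID2 lies above the other 8 subunits in every library, from 772 to 1344 per kb.

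Other genes of the Polycomb pathway were taken from lists chosen by function. Of the remaining PRC2 accessory genes, AEBP2, PHF1, LCOR and LCORL were in the table, and EPOP and EZHIP were not analysed here. None of these 4 passed the limma threshold in any of the 5 contrasts. The smallest unadjusted p was 0.0464, for PHF1 in shKDM1A, where PHF1, a Polycomb-like protein related to MTF2 and PHF19, had 1244 and 990 against 802 and 864 in shLUC. The shSMARCA4 libraries had 820 and 1056 of LCOR and those of shLUC 618 and 741, and AEBP2, a zinc finger partner of SUZ12, had 775 and 1200 against 1098 and 1160.

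Polycomb repressive complex 1 (PRC1) ubiquitinates histone H2A and acts beside PRC2, and 22 of the 25 listed genes were in the table. In shSMARCA4 against shLUC, 1 of the 22 rose and 0 fell, where 1.67% of rows rose. BMI1 (PCGF4), a ring finger partner of the PRC1 ligase, had 156 and 176 in shLUC and rose to 381 and 363 in shSMARCA4, by 1.16 on the log2 scale (SE 0.20, limma adjusted p 0.0159). That call held under 11 of 11 other settings (0.00381 to 0.0222) and in 6 of 10 fits without 1 library (0.00779 to 0.135), and was lost when any of the 4 libraries compared was left out.

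Against the other 3 knockdowns, 2 of the 22 PRC1 genes were higher in shSMARCA4 and 0 lower, where 3.7% of rows were higher. BMI1 was higher by 1.10 (limma adjusted p 0.00464). PHC2, a Polyhomeotic protein of PRC1, had 62 and 78 in shKDM1A, 63 and 62 in shE2F6, 66 and 94 in shMAFK, and 150 and 188 in shSMARCA4, a log2 difference of 1.25 (SE 0.21, limma adjusted p 0.00779). PHC2 had 209 in both shLUC libraries, so the other 3 knockdowns lay below the control, with a log2 change of -1.40 in shMAFK, -1.73 in shE2F6 and -1.57 in shKDM1A, none of them called (limma adjusted p 0.140, 0.264 and 0.126). Without shSMARCA4 replicate 2, the PHC2 difference had a limma adjusted p of 0.107 (range 0.00356 to 0.107), and the BMI1 one was lost without replicate 1 (0.0591, range 0.00267 to 0.0591). CBX6, a chromodomain protein of PRC1, had 767 and 972 in the control and 543 and 470 in shSMARCA4 (limma adjusted p 0.0865).

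The list of genes that act against Polycomb repression held lysine 27 demethylases, the H2A deubiquitinase and the MLL and SET1 methyltransferases, and 22 of 23 were in the table. Of these, 0 passed the limma threshold in the 5 contrasts, and at an unadjusted p under 0.05 6 of the 22 were higher and 1 lower in shSMARCA4, where 16.3% of all rows had such a p in either direction. ASXL1, a partner of the deubiquitinase BAP1, differed among the knockdowns (F-test, limma adjusted p 0.0268), with 376 and 425 in shKDM1A, 528 and 564 in shMAFK, 699 and 714 in shSMARCA4, 700 and 792 in shE2F6, and 794 and 666 in shLUC. That call held under 8 of 11 other settings (limma adjusted p 0.0239 to 0.102) and was lost without both shKDM1A libraries (0.102). It was also lost in 8 of 10 fits without 1 library (0.00948 to 0.0862), and held only where that library was from shKDM1A. SETD1B had 648 and 658 in shMAFK against 324 and 431 in shLUC (limma adjusted p 0.158), and the demethylase KDM6B had 101 and 154 there against 350 and 342 (limma adjusted p 0.332).

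RBBP4 and RBBP7 also serve NuRD, SIN3 and other chromatin complexes, and all 22 listed partner genes were in the table. Against shLUC 0 of them passed the limma threshold in any knockdown, with 1 higher and 2 lower at an unadjusted p under 0.05 in shSMARCA4, where 16.3% of all rows had such a p. Against the other 3 knockdowns 1 of the 22 was higher, where 3.7% of rows were: CHD3, an ATPase of NuRD, had 1036 and 1166 in shKDM1A, 982 and 918 in shE2F6, 843 and 828 in shMAFK, and 1627 and 1464 in shSMARCA4, a log2 difference of 0.69 (SE 0.12, limma adjusted p 0.0104). The call was lost without either shSMARCA4 library, with a limma adjusted p of 0.113 without replicate 1 (range 0.00373 to 0.113 over the 10 fits). SAP18 of the SIN3 complex had 3550 and 3168 in the control and 2200 and 2249 in shSMARCA4 (limma adjusted p 0.0769), and the NuRD gene MTA2 had 2726 and 2544 in the control and 3126 in both shSMARCA4 libraries (limma adjusted p 0.454).

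Genes that PRC2 is known to keep silent in embryonic stem cells were represented by 10 of 152 listed developmental regulators. Every row of the table reached 80 in at least 2 libraries, so a silent gene is present in it only where some group expressed it, and the counts over these 10 are no measure of the list. IRX2, a homeobox gene, had 501 and 728 in shLUC and fell to 46 and 62 in shSMARCA4 (log2 change -3.47, SE 0.31, limma adjusted p 0.000971). ZIC1, a zinc finger gene of neural development, had 95 and 149 in shLUC and rose to 462 and 1004, by 2.51 on the log2 scale (SE 0.43, limma adjusted p 0.0147). These 2 genes moved in opposite directions in the shSMARCA4 libraries.

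SIX6 and TBX3, transcription factors of eye and limb development, were in the table only through the 2 shSMARCA4 libraries, so their values are a description. SIX6 had 187 and 254 in shSMARCA4, 37 and 17 in shLUC and 0 to 44 in the other knockdowns. TBX3 had 99 and 141 in shSMARCA4, 43 and 42 in shLUC and 13 to 46 in the other knockdowns. The call of ZIC1 against shLUC was lost without either shLUC library or without shSMARCA4 replicate 2 (range 0.00832 to 0.129), while that of IRX2 was kept in all 10 such fits (0.000471 to 0.0172).

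**Figure D5:**
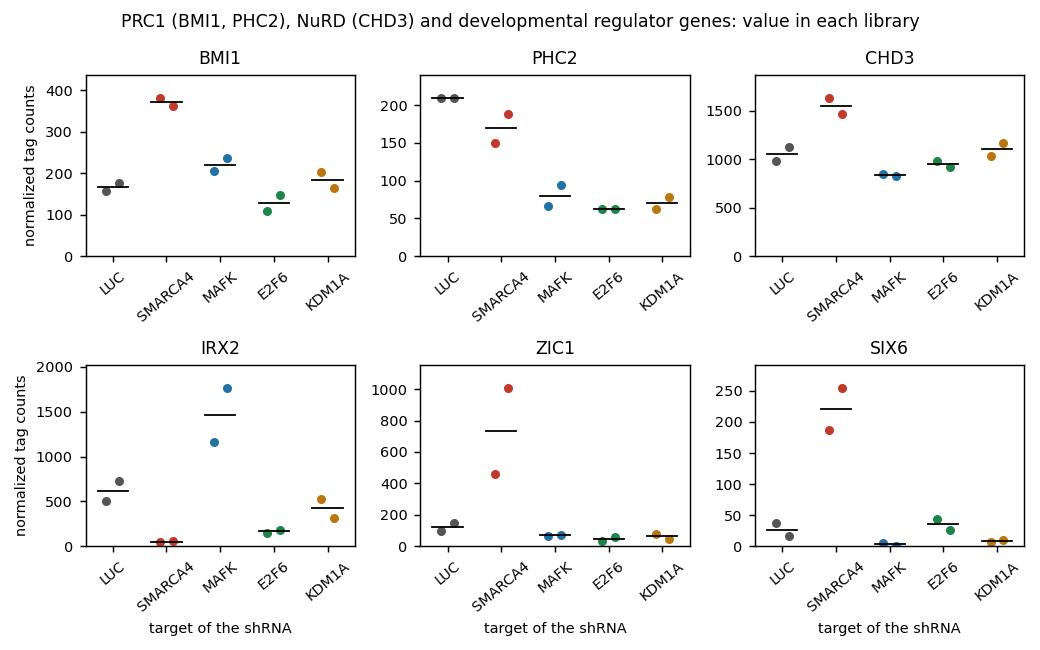
Normalized tag counts (vertical axis, linear from 0) of the PRC1 genes BMI1 and PHC2, the NuRD gene CHD3 and the developmental regulators IRX2, ZIC1 and SIX6 by target of the shRNA (horizontal axis). Points are libraries and lines are group means (n = 2). BMI1, CHD3, ZIC1 and SIX6 are highest in the 2 shSMARCA4 libraries, through which alone SIX6 entered the table, IRX2 is lowest there, and PHC2 is highest in shLUC.

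Among 13758 other genes with a mean of at least 50, those whose log2 values followed a subunit most closely over the 10 libraries were listed as a description, since all libraries share the fit and the groups. For JARID2 these were COTL1 (Pearson r 0.981), AC126768.2 (0.967) and AL138720.1 (0.965). For MTF2 they were SUSD5 (0.976), TRNP1 (0.965) and ING1 (0.962). The closest to EZH2 were TRIO (0.904), RABEPK (0.9) and AC008555.1 (0.899), and to SUZ12 RTL10 (0.907), ZNF93 (0.893) and TAF15 (0.89). Among the subunits themselves, EED with RBBP7 (0.837) and JARID2 with MTF2 (0.749) were the closest pairs, and JARID2 with RBBP4 (-0.777) the most opposed; shKDM1A replicate 1 is an extreme library for EED, RBBP7 and RBBP4 and also holds the highest JARID2 and MTF2 values.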

How the data were processed

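RNA of 10 libraries of H1 cells was measured. Libraries were made from total RNA with NEB Next Ultra, per the labels' protocols. The deposited values are used as a score, and the unit is abbreviated ntc, read here as normalized tag counts. They are whole numbers whose nearly equal totals show that they were normalized, by a method that is not given in the sources used here. A further quantile normalization left the log2 changes of JARID2 as they were, so at that level the libraries already shared nearly the same values. STAR, STARsolo and hg38 are named in the submitters' processing notes, with no role. Depth is therefore unknown and no count model was used.

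Log2(value + 1) was fitted with limma 3.58.1 in R 4.3.3 over all 10 libraries and 14785 rows (13808 genes and 977 other rows), with a mean-variance trend and 5 residual degrees of freedom. The contrasts were each knockdown against shLUC, shSMARCA4 against the mean of the other 3 knockdowns, and an F-test over the 4 knockdowns. P-values are two-sided and Benjamini-Hochberg adjusted over all rows, with a threshold of 0.05. A minimum mean of 10 removed no row, so the alternative without a filter repeats the main fit. Fold changes on this scale understate those of low genes.

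All 9 subunits are described. From each list of Polycomb, opposing and partner genes and of PRC2 targets, marker lists aside, the text names those past the threshold in any contrast and, where fewer than 3 passed, those with the smallest unadjusted p until 3 are named. Likeness was ranked by Pearson correlation over the 10 libraries. The members and lists were chosen with earlier results of these data known. Alternatives were other pseudocounts, filters, scalings, variance models, row sets and sample sets, a replicate block, and leaving out each library. Gene positions and exon lengths are from GENCODE 29 on GRCh38. A second deposited table of group means was not used. Python 3.11.15, pandas 2.3.3, numpy 2.4.6 and matplotlib 3.10.9 were used for the rest.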

Additional observations from a re-analysis of the deposited data

Results flagged for a closer look

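JARID2 differed among the 4 knockdowns (F-test, limma adjusted p 0.0471). MTF2 lay above the shLUC mean of 3111 in both shKDM1A libraries and below it in both shSMARCA4 libraries. The difference between those 2 knockdowns was not tested by itself, and the F-test over all 4 gave MTF2 a limma adjusted p of 0.393.

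Of the PRC1 genes, BMI1 (limma adjusted p 0.0118) and PHC2 (0.0338) differed among the knockdowns. The call of PHC2 was lost in 8 of 10 fits without 1 library (up to 0.228) and with only the groups compared (0.0917), and that of BMI1 without either shSMARCA4 library (up to 0.0827). ASXL1 of the genes opposing Polycomb (0.0268) and CHD3 of NuRD (0.0319) also did, by the same limma F-test, and each of these 2 calls was lost in 8 of 10 fits without 1 library (up to 0.0862 and 0.166). Among the developmental regulators the limma adjusted p was 0.000782 for IRX2 and 0.00374 for ZIC1, both called in each of the 10 fits. SIX6 (0.0247) and TBX3 (0.0360) were in the table only through high values in shSMARCA4, which fixed a difference among the knockdowns, so these p-values support nothing. Their calls were also lost in 5 and 8 of the 10 fits.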

How the results depend on the processing

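Of 45 log2 changes of subunits, 0 changed sign under the 11 other settings. Most of these settings leave the group means as they are, so they could not change a sign. Of the same 45, 22 changed sign in at least 1 fit that left out a library. A lone library was then assumed to vary like the others. Subunits called by the F-test numbered 1, and 0 under upper quartile scaling, without the mean-variance trend, with only the groups compared, with a replicate block or with gene rows only. With 1 library left out, the subunits called ranged from 0 to 1 (shKDM1A against shLUC), from 0 to 2 (shSMARCA4 against the other 3 knockdowns) and from 0 to 2 (F-test).

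Log2 changes that changed sign ranged as follows when 1 library was left out. In shSMARCA4 against shLUC the ranges were -0.10 to 0.41 (EZH1), -0.23 to 0.00032291 (EED), -0.03 to 0.29 (RBBP4) and -0.12 to 0.07 (RBBP7). In shMAFK they were -0.15 to 0.30 (EZH1), -0.20 to 0.01 (EED), -0.29 to 0.18 (SUZ12), -0.05 to 0.09 (MTF2) and -0.20 to 0.31 (PHF19). In shE2F6 they were -0.16 to 0.07 (EZH1), -0.13 to 0.14 (EED), -0.36 to 0.11 (SUZ12), -0.05 to 0.03 (MTF2), -0.0026681 to 0.31 (PHF19) and -0.07 to 0.11 (RBBP7). In shKDM1A they were -0.18 to 0.05 (EZH1), -0.39 to 0.36 (EED) and -0.19 to 0.30 (RBBP7). In shSMARCA4 against the other 3 knockdowns they were -0.08 to 0.43 (EZH1), -0.21 to 0.04 (EED), -0.03 to 0.34 (PHF19) and -0.08 to 0.09 (RBBP7). The cause was not tested.

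Deviations of same-numbered libraries correlated between -0.05 and 0.337, with 2 of 10 pairs of groups over 0.1, so the replicate numbers were not taken as pairs. With the replicate block, the limma adjusted p of JARID2 was 0.0528 by the F-test and 0.0153 for shSMARCA4 against the other 3 knockdowns.

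Over all rows, group weights moved the number called from 618 to 1306 in shSMARCA4, from 2 to 487 in shMAFK, from 0 to 21 in shE2F6, from 4 to 2 in shKDM1A and from 982 to 1535 in the F-test. With only the groups compared the numbers were 32 in shMAFK, 1 in shKDM1A and 519 in the F-test, and without the trend 9 in shKDM1A. Leaving out shKDM1A replicate 2 gave 3235 in shKDM1A, and leaving out both shKDM1A libraries gave 2117 in the F-test. With 1 library left out, the F-test called 278 (without shSMARCA4 replicate 1) to 5302 (without shKDM1A replicate 2), and shSMARCA4 against shLUC 89 (without shLUC replicate 2) to 1159 (without shKDM1A replicate 2). The number called in shSMARCA4 against the other 3 knockdowns was 1286, and ranged from 436 without shSMARCA4 replicate 2 to 3108 without shKDM1A replicate 2. Depth is unknown, and 2 libraries a group gave the changes of subunits 95% intervals that reached a median of 0.43 to either side on the log2 scale.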
